A study of Mus musculus with 10 samples.

Results

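NF-kappaB is the transcription factor family through which many danger and cytokine signals reach the inflammatory genes of macrophages, and the 10 genes described here encode its subunits and inhibitors in microglia, the brain's own macrophages, in culture. They were chosen by name (Rela, Rel, Nfkb1, Nfkb2, Relb, Nfkbia, Nfkbib, Nfkbie, Nfkbiz and Tnfaip3) among 18976 genes that had a probe set row of their own. Each of the 10 had exactly 1 such row, and none of them shared a row with another gene. The cells were primary microglia of newborn wildtype C57BL6 mice, shaken off 14-day mixed glial cultures that had been grown with serum. In serum-free medium, 5 samples received 5 ng/ml recombinant human TGFb1 for 24 h and 5 control samples received no agent.

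The value used for every gene is the median intensity that the authors deposited for its probe set, a single linear number per row without an SD or a value per group. The names of the single-array columns match no sample label, so these were left aside, and the effects and p-values of the authors' own comparison were not used. No difference between TGFb1-treated and control microglia was therefore estimated. The header of the column names neither a sample nor a group, so the arrays behind the median are not known. An array intensity also depends on how well each probe binds, so the order of intensities is not an order of transcripts per cell.

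In resting cells NF-kappaB dimers are held in the cytoplasm by IkB proteins. When a receptor such as a Toll-like receptor is engaged, the kinase TAK1 activates the IkB kinase complex, IkB is marked for degradation and the freed dimers enter the nucleus. Several of the genes they switch on encode their own inhibitors, which closes a negative feedback loop. The study dealt mainly with microglia that cannot sense TGFb and, among other traits, examined TAK1 phosphorylation and cytokine release in them. Those mutant cells are not the wildtype cells described here. The study also treated primary wildtype microglia with recombinant TGFb1, and the arrays described here belong to that part. TAK1 acts upstream of the IkB kinase complex in this pathway.

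Because several of the members are known to be targets of NF-kappaB themselves, the promoters were searched for its binding motif first. RefSeq promoters of the GRCm38.p6 build, from 250 bases before to 50 bases after an annotated start, were given for 7 of the 10 genes and for 10 starts in all. The kappaB consensus, searched on both strands, had a match in 5 of these 7 genes, which were Rel, Nfkb2, Nfkbia, Nfkbie and Tnfaip3. Counted by promoter, 7 of the 10 member promoters held it, against 4.51% of all 32851 promoters in the table. Counted by gene, the share over all 27025 genes with a promoter was 5.14%. Rela and Nfkbib had no match in the window. A match is a run of letters and not evidence of binding, and the members had been chosen for their part in this pathway.

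For each of these genes a stretch that holds a match before the first listed start is shown, because it carries the motif that they have in common. They are written in the direction of transcription, with the consensus in capitals.

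Nfkbia, chr12:55492648-55492696, minus strand: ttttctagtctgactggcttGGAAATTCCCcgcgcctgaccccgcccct

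Nfkbie, chr17:45555574-45555623, plus strand: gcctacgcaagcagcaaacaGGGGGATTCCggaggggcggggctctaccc

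Tnfaip3, chr10:19015413-19015547, minus strand: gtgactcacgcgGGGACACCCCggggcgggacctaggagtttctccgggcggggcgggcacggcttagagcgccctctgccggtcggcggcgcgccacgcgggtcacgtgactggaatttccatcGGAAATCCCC

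Rel, chr11:23771031-23771081, minus strand: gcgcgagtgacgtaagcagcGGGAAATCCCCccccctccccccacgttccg

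Nfkb2, chr19:46304688-46304717, plus strand: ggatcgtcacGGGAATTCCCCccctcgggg

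The stretches of Nfkbia, Nfkbie, Tnfaip3 and Rel lie outside the exons that GENCODE M21 annotates on the same build. That of Nfkb2 lies in an exon annotated there as untranslated in Nfkb2 and in an exon of the gene AC114539.1, so only the site and a few bases around it are shown. In Nfkbia the match began 29 bases before the start and was read on the opposite strand. In Nfkbie it began 106 bases before the start. Tnfaip3 had matches 125 and 12 bases before its first start, on opposite strands. In Rel a single place 92 bases before the start matched on both strands, in overlapping registers. In Nfkb2 a place 39 bases before the first start matched on both strands and a further one stood 11 bases before it. Of its other starts, the second had matches 236 bases before it and 10 bases after it, and the latter is the same place as the one 225 bases before the third.

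**Figure D1:**
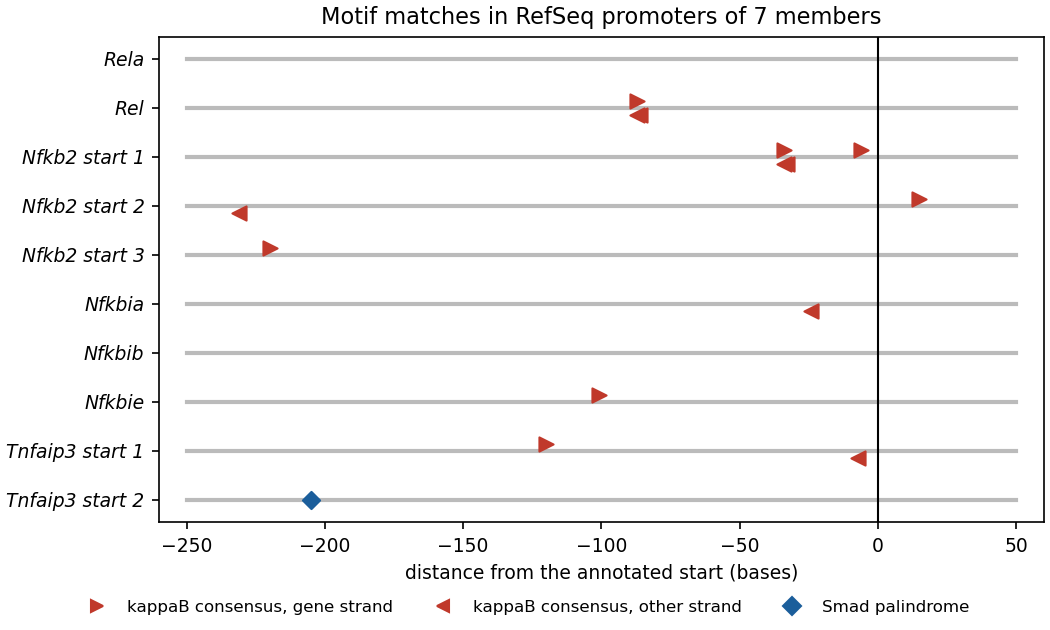
Position of motif matches (bases from the annotated start, which is at 0) in the RefSeq promoters of 7 members, 1 line per start. Red triangles stand for the kappaB consensus and point right on the gene's strand and left on the other, and the blue diamond marks the Smad palindrome. Red triangles stand on 7 of the 10 lines, the diamond stands on the second start of Tnfaip3, and Rela and Nfkbib carry neither.

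The shorter motif GGNNTTTCC, which can overlap the consensus, was found on either strand in 4 of the 7 genes, Nfkb2, Nfkbia, Rel and Tnfaip3, and in 6.62% of all genes with a promoter. Counted by promoter, it was in 6 of the 10 member promoters and in 5.82% of all promoters. It added a place 178 bases before the start of Nfkbia and another 24 bases before the first start of Tnfaip3. TGFb acts through Smad proteins, and their palindromic site GTCTAGAC was searched as well, also on both strands. It occurred in 1 of the 10 member promoters, 209 bases before the second start of Tnfaip3, and in 0.213% of all promoters. GC content ranged from 47.0% at that second Tnfaip3 start to 75% in Rel. The number of CpG dinucleotides ranged from 6 at the same Tnfaip3 start to 42 in the Rel promoter, and Nfkbia and Nfkbie held 15 and 16. Neither measure was computed over all promoters.

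Rela and Rel had the highest intensities among the subunits. Rela, which encodes p65, the main transactivating subunit of the canonical dimer, had a median intensity of 411.0 (probe set 10460631), higher than 95.3% of all genes. Rel encodes c-Rel, a subunit of blood cells that in macrophages is known for its part in the transcription of interleukin-12 genes, and it stood at 303.2 (probe set 10384725), above 93.3% of genes. Both were thus in the top decile of the table, which began at 209.2.

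The precursor subunits had lower intensities than these. Nfkb1, whose product p105 is cut to p50, the usual partner of p65, had a median intensity of 139.4 (probe set 10502299), above 85.2% of genes. Nfkb2, whose product p100 is cut to p52 in the non-canonical branch, stood at 90.3 (probe set 10463599), above 78.5%. The partner of p52 in that branch is encoded by Relb, which was far lower, with an intensity of 22.0 (probe set 10560575) that exceeded 55.4% of genes. Of the 5 subunits, 4 lay in the upper quartile of the table, above 73.4, and Relb lay close to the median gene at 15.8.

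**Figure D2:**
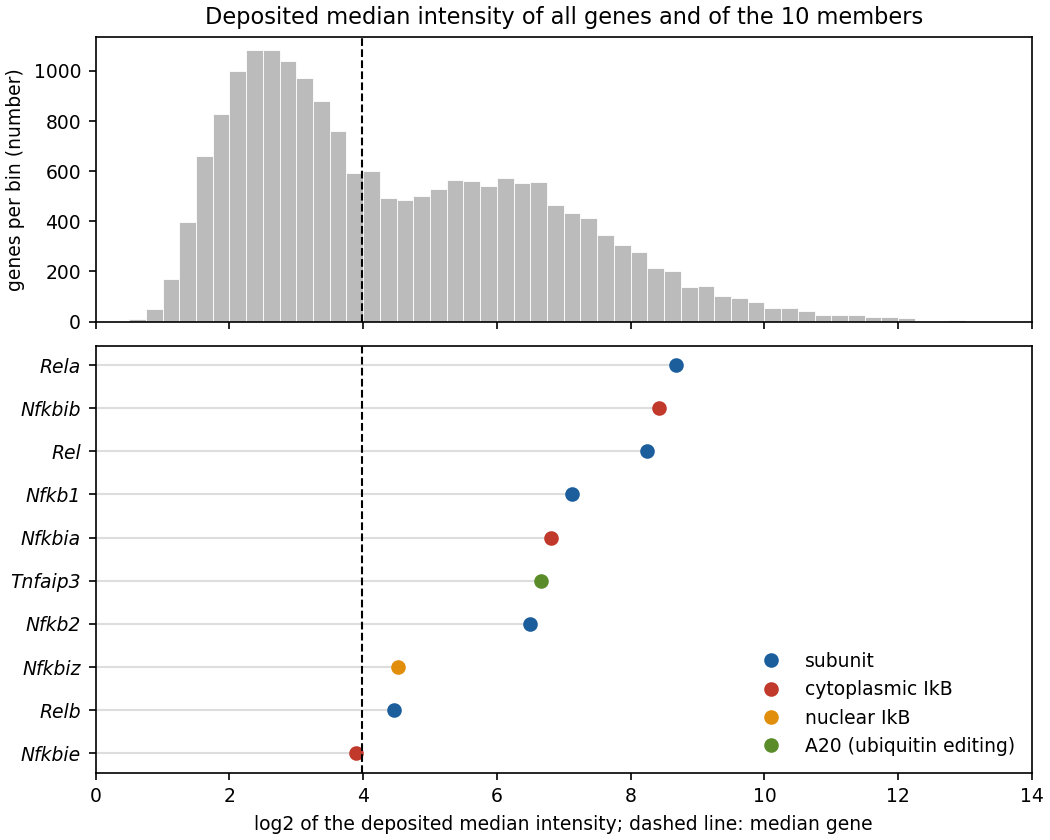
Upper panel, number of genes per bin of log2 median intensity, for 18976 genes; lower panel, the same log2 intensity for each of the 10 members, coloured by role, with the median gene as a dashed line. Rela, Nfkbib and Rel stand highest, and Nfkbiz, Relb and Nfkbie stand near the median gene.

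Among the cytoplasmic inhibitors the intensities were spread widely. Nfkbib, which encodes IkB-beta, an inhibitor that is resynthesised slowly after a stimulus, had a median intensity of 342.1 (probe set 10561516), above 94.1% of genes. Nfkbia, which encodes IkB-alpha, the fast feedback inhibitor, stood at 111.6 (probe set 10400405), above 82.1%. Nfkbie, which encodes IkB-epsilon, the delayed feedback inhibitor, had the lowest value of all 10 members, 14.9 (probe set 10445412), above 48.9% of genes. It was the only member below the median gene, although among every row of the table, rows without a symbol included, it stood above 53.4%. Nfkbia and Nfkbie, at 111.6 and 14.9, both carried a kappaB match in their promoters, and Nfkbib, at 342.1, had none. Of the other members with a promoter, Rel (303.2), Tnfaip3 (100.6) and Nfkb2 (90.3) had a match and Rela (411.0) had none. Whether a match goes with intensity was not tested. Intensities of different probe sets also depend on how well each probe binds.

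The inhibitors that act elsewhere in the pathway were also measured. Tnfaip3 encodes A20, an enzyme that edits ubiquitin chains on signalling proteins upstream of the IkB kinase complex and so ends the signal. Its median intensity was 100.6 (probe set 10368144), above 80.4% of genes. Nfkbiz encodes IkB-zeta, an atypical nuclear IkB that is switched on by Toll-like receptor signals and helps to transcribe secondary genes. It stood at 23.1 (probe set 10439936), above 56.2% of genes. The 10 members had a median intensity of 106.1, and 7 of the 10 lay in the upper quartile of the table.

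The probe sets were checked against the genes they are named for. Each row lists between 1 and 4 Ensembl transcripts of its member, and between 1 and 3 of these were still in GENCODE M21. All transcripts found there belonged to the named gene. For Nfkb1 only 1 of 3 listed transcripts was found, for Rela 1 of 2, for Nfkbib 2 of 3 and for Relb 3 of 4.

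The labelled cell type was compared with its markers in the same column. The 8 microglia and macrophage markers had a median intensity of 803.5, and the lowest of them was P2ry12 at 40.4. The 22 measured markers of astrocytes, the oligodendrocyte lineage, fibroblasts, endothelium and neurons had a median of 8.51. The highest were Cspg4 at 58.0 and Mbp at 56.7, both of the oligodendrocyte lineage list and both above P2ry12. Cspg4 stood above 71.0% of all genes, so any gene above all 22 markers lies in the remaining share. In 7 of the 10 NF-kappaB genes the intensity was above that of all 22 of these markers. Relb and Nfkbiz were each exceeded by 3 of the 22, and Nfkbie by 6. These 3 genes therefore had intensities in the range of markers of cells other than microglia, and whether their signal exceeded the background of the array was not tested. Of 5 measured markers of border macrophages and monocytes, Mrc1 was the highest at 155.7 and Ccr2 the lowest at 3.23.

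In the list of IkB kinase and upstream signalling genes, 27 of 28 measured genes had intensities above the median gene, with Traf1 the exception. The median of the list was 99.3. It is a broad list, and not all of its genes are parts or activators of the IkB kinase complex. The highest were Tab2, an adaptor of TAK1, at 757.1, Myd88, the adaptor of most Toll-like receptors, at 465.7, and Bcl10, a scaffold protein, at 407.8. The lowest were Traf5 at 19.3 and Traf1 at 4.30. Map3k7, which encodes TAK1 itself, stood at 180.7. The kinase complex was represented by Ikbkb at 100.6, Ikbkg, its regulatory subunit, at 98.0 and Chuk, which encodes IKK-alpha, at 42.7. Map3k14, the kinase that drives processing of the Nfkb2 product, shared a row with 1700028N14Rik, whose intensity was 20.6.

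The list of other IkB proteins and feedback regulators had a median intensity of 62.2 over 29 measured genes, of which all but Sigirr lay above the median gene. It also holds genes with other roles in the pathway, among them Nkap. Tnfaip2, Nlrc5 and Tnfaip8l2 were highest, at 413.9, 303.6 and 281.8, and Nkap and Sigirr lowest, at 19.8 and 12.7. Commd1 shared a row with Zrsr1 whose intensity was 13.8, and it is not counted among the 29. The remaining nuclear IkB genes were Bcl3 at 69.7 and Nfkbid at 26.4, so that Nfkbid and Nfkbiz had similar intensities.

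Genes known to be switched on by NF-kappaB covered a far wider range than the factor's 5 subunits. The target list is much longer, and a range grows with the number of genes, so the widths are not directly comparable. The targets' median was 47.0 over 39 measured genes, with values from 2.45 to 2567, and 29 of the 39 lay above the median gene. The chemokine gene Ccl3, the protease gene Plau and Sod2, which encodes a mitochondrial superoxide dismutase, were highest, at 2567, 1426 and 499.0. Cxcl16, a further listed target, shared a row with Zmynd15 whose intensity was 833.9, and it is not counted among the 39. The growth factor gene Csf2 and the cytokine gene Il6 were lowest, at 3.28 and 2.45. Tnf stood at 198.7, whereas Il1b, another classical target, had an intensity of 5.09, below every one of the 10 NF-kappaB genes.

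**Figure D3:**
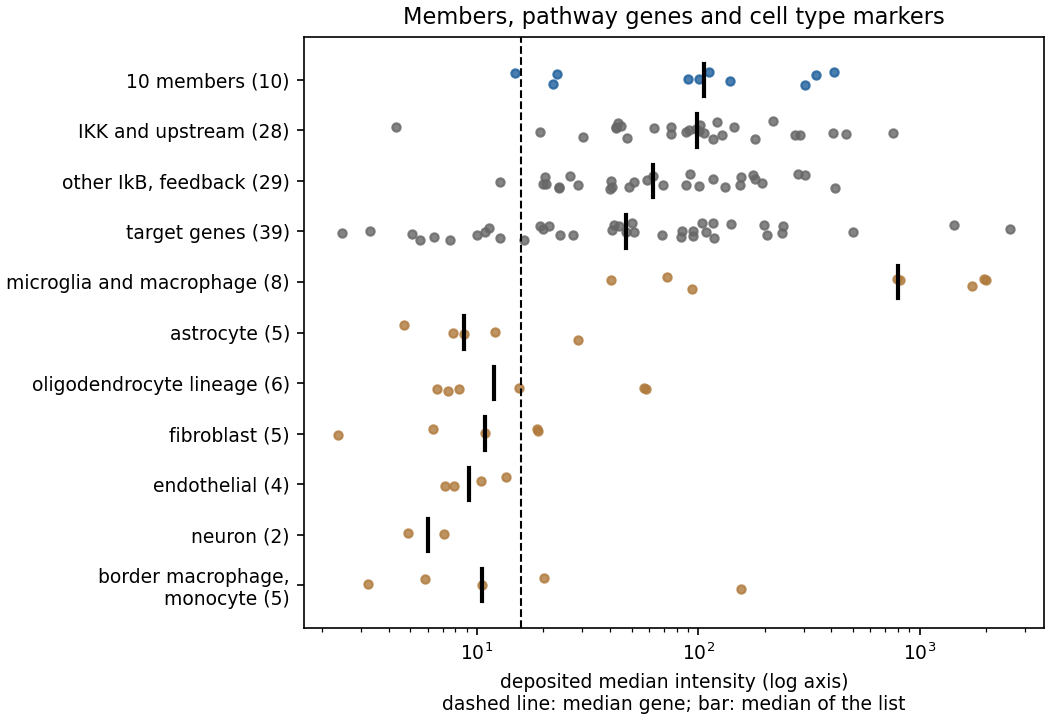
Median intensity (log axis) of single genes, 1 point per gene, for the 10 members, 3 lists of pathway genes and 7 lists of cell type markers, with the number of measured genes in brackets and a bar at each list's median. The members' median of 106.1 stands near that of the kinase list, 99.3, and the target genes reach from 2.45 to 2567.

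The annotation deposited with the rows groups the members in a further way. KEGG pathway terms were given for 8 of the 10 members, all but Rel and Nfkbiz. NOD-like receptor signalling was assigned to 5 of them, Rela, Nfkb1, Nfkbia, Nfkbib and Tnfaip3, and to 1.22% of the 4576 genes with any pathway term. Toll-like receptor signalling was assigned to Rela, Nfkb1 and Nfkbia, and to 2.01% of annotated genes. The terms were not limited to innate sensing. T cell receptor, B cell receptor and neurotrophin signalling were each assigned to Rela, Nfkb1, Nfkbia, Nfkbib and Nfkbie. Their shares of annotated genes were 2.23%, 1.62% and 2.60%. RIG-I-like receptor signalling (1.40%) and cytosolic DNA sensing (1.11%) were assigned to Rela, Nfkb1, Nfkbia and Nfkbib. The non-canonical subunits Nfkb2 and Relb carried none of these terms and shared the MAPK signalling term with Rela and Nfkb1. That term was assigned to 5.22% of annotated genes. Of the 53 genes with a process term that names NF-kappaB, 3 were members, and the median intensity of the 53 was 53.3. Cytoplasmic sequestering of NF-kappaB was assigned to Nfkbia and Nfkbib alone, and not to Nfkbie.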

How the data were processed

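Total RNA of 10 samples of microglia (5 control, 5 TGFb1) was extracted with TRIzol, and its integrity numbers were 8.6 to 10 (mean 9.45). RNA was amplified with random primers, labelled with biotin and measured on Affymetrix whole transcript arrays, so that precision is limited by the number of arrays and not by a read depth. The authors deposited one table of 28361 probe set rows, made with RMA (version and genome build are not given in the sources used here), and the linear intensity used here is its median expression column as deposited. The header does not say over which arrays the median was taken. A further 10 columns of values per array matched no sample label and were used in no step, so the planned limma fit with the replicate number as a block could not be made. The authors' own paired comparison (effects, CyberT p-values and FDR, 5 columns) was not used.

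Of the rows, 21041 name 1 symbol, 2247 several, 5061 none and 12 a date. Per symbol the row with the highest median was kept, which gave 18976 genes, and percentiles are the share of these with a lower value. The members and lists were chosen with earlier results of these data known. Named were all members and, of each pathway list, the 3 highest and 2 lowest genes with a row of their own. Map3k7, Ikbkb, Ikbkg, Chuk, Map3k14, Bcl3, Nfkbid, Commd1, Cxcl16, Tnf, Il1b and the markers were added after their values were seen. Older symbols were used to find 2 listed genes. Motifs were searched in Python 3.11.15 (numpy 2.4.6, pandas 2.3.3), and the search was tested on simulated sequences. Promoters are from RefSeq, GRCm38.p6, matched by symbol. Coordinates count from 1.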

Additional observations from a re-analysis of the deposited data

How the results depend on the processing

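No paired analysis was possible because the columns of values per array carry no sample label, and for the same reason no alternative of a test, scaling or left-out replicate was run. The median percentile of the 10 members was 81.2 among genes with a leading row. It was 81.1 among every row with 1 symbol, 82.5 among every row of the table, a setting chosen after seeing the data, and 65.5 among genes at or above the median of all rows, where fewer low genes are compared. In that setting the percentile of Nfkbie was 6.14 in place of 48.9, that of Relb 18.2 in place of 55.4 and that of Nfkbiz 19.6 in place of 56.2. Among every row of the table Nfkbie stood at 53.4, above the median row. The level of each member was the same with all rows of its symbol, since each has 1 row. Motif and window were also chosen after seeing the data. Against 5 genes with the kappaB consensus, the count of genes with a match was 4 with GGNNTTTCC, 5 with the bases before the start only and 5 with the first start only.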
